A study of Mus musculus with 24 samples.

Results

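The metallothioneins Mt1 and Mt2, the metal-sensing transcription factor Mtf1, the zinc exporter Slc30a1 and the zinc importers Slc39a6 and Slc39a10 were followed in CD8+ OT-I T cells from graft to target organ. These 6 genes were taken as every gene probe on the array that carries one of their names, which gave 9 probes of 39429. Values of all 24 arrays had been seen when the 6 genes were chosen, so their levels and differences are given as a description with standard errors and no p-values. Of the 6 genes, 3 (Mt1, Mt2 and Slc39a6) passed the signal filter that left 9422 genes, and 4 of the 9 probes did.

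The series comes from a mouse model of acute graft-versus-host disease. Recipients, named m-act OVA, are of the C57Bl/6 strain and carry the transgene CAG-OVA, whose CAG promoter drives ovalbumin in most tissues. They received 11 Gy of total body irradiation in split doses and then bone marrow cells and splenocytes of OT-I donors (C57BL/6-Tg(TcraTcrb)1100Mjb/J), whose CD8+ T cells carry a transgenic receptor for an ovalbumin peptide. All samples are labelled female, 8 to 16 weeks of age. The OT-I CD8+ T cells that were profiled came from CD45.1 animals, and the other graft cells and the recipients carried CD45.2. In each sample, cells were positively selected with magnetic beads through CD45.1. The control group is the graft on day 0, described by the depositors as naive cells (4 arrays). The other groups are cells recovered on day 4 from peripheral blood, liver, lung and small intestine of recipients (5 arrays each). Graft cells had not been in an irradiated host, so time, activation and host cannot be told apart in a comparison of day 4 with the graft. The labels do not tie samples to animals or say whether animals were pooled. P-values therefore measure only the spread between these samples, which may be technical.

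Metallothioneins are small cysteine-rich proteins that bind zinc and copper in the cytosol, buffer free zinc and scavenge oxidants. Their transcription is driven by the zinc-sensing factor MTF-1, which binds metal response elements in their promoters, and also by glucocorticoid and oxidative stress. ZnT proteins (the Slc30 family) move zinc out of the cytosol, and ZIP proteins (the Slc39 family) move it in. In T cells, zinc entry through ZIP proteins is known to take part in signalling downstream of the antigen receptor.

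The promoters of Mt1 and Mt2 are shown because both genes carry the main pattern of these data and are textbook targets of MTF-1. Each sequence is the 250 bases before the annotated start on the plus strand, from RefSeq on GRCm38.p6. Mt1 lies at chr8:94178839-94179088 and Mt2 at chr8:94172368-94172617, with 6471 bp between the annotated starts. Capitals mark the core of the metal response element, searched as TGCACNC and TGCGCNC on both strands.
Mt1: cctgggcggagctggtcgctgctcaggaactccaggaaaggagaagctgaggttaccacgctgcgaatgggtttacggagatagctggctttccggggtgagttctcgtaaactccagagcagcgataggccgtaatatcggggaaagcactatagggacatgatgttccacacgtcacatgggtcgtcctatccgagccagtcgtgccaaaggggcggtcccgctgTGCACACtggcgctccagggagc
Mt2: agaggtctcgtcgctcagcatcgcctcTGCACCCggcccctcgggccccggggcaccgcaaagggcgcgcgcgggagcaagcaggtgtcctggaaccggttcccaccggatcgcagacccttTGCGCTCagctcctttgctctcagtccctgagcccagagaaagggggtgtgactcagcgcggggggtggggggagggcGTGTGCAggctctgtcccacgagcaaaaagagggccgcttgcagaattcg
The Mt1 window held 1 core, at -23 to -17 from the start. The Mt2 window held 3 cores that do not overlap, at -223 to -217, at -128 to -122 and, on the minus strand, at -50 to -44. Of 32851 RefSeq promoter windows of this length, 21.4% held at least 1 core, 5.18% at least 2 and 1.26% at least 3. Promoter windows were found for 5 of the 6 genes. Slc30a1 held 1 core on the minus strand, and Mtf1 and the 2 windows of Slc39a10 held 0. With the 50 bases after the start added, Mt1 held 3 cores, Mt2 held 4 and Slc30a1 held 2, and 1.97% of all such windows held at least 3. The Mt1 count thus depended on where the window ended, and bases further after the annotated start were not searched. The core of the antioxidant response element, searched as TGACNNNGC on both strands, occurred once in the 250 bases of Mt2 (-79 to -71) and of Slc30a1 and in 10.16% of all windows. Mt1 held 0 in the 300 bases searched, which does not show that its promoter lacks this element. These are matches of letters, and binding was not measured.

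Levels are log2 of the processed spot signal, with the 75th percentile of the gene probes on that array subtracted, so 0 marks the 75th percentile and a difference of 1 is a doubling. "Well above background" is the scanner software's flag for a spot clearly brighter than its background. A probe without the flag is called below background here, which does not show that it holds no signal. Of all gene probes, 29.9% ± 3.91 (SD, n = 24 arrays) carried it, with group means from 28.1% to 30.9%. The number of arrays limits the precision. All 8 T cell markers, Cd3d, Cd3e, Cd3g, Cd8a, Cd8b1, Lck, Cd2 and Thy1, were well above background on all 24 arrays. The 4 graft arrays share 1 slide that holds no day 4 array, and they were scanned on another day than all 20 day 4 arrays. Slide, scan day and group therefore cannot be told apart in a comparison of day 4 with the graft. The 20 day 4 arrays lie on 5 slides with 1 array per site on each. Summed marker levels, in multiples of the 75th percentile, were 201 to 258 for 8 B cell genes in the graft against 3.69 to 34.4 on day 4. For 8 neutrophil and monocyte genes they were 380 to 483 against 47.2 to 198, and for 6 erythroid genes 10.4 to 297 against 0.877 to 68.2. Of the 8, Csf3r had the highest mean level at each day 4 site and changed little, from 6.41 in the graft to between 5.62 and 6.22. S100a8 went from 6.64 to between -2.29 and 0.04 and Camp from 6.28 to between -3.07 and 0.24, so the sums understate the fall of such genes. The fall of the B cell sum was not that of every B cell gene. Ebf1 had a mean of 1.99 in the graft and of 1.63 to 3.03 at the day 4 sites. Pax5 was well above background on 0 arrays of each group, and Cd22 only on 1 of 5 lung arrays. In such bulk samples, fewer cells of a type and less RNA per cell cannot be told apart. Lung 4 and intestine 4 had the lowest mean correlation with the other arrays of their site (0.892 and 0.826), close to intestine 5 (0.832), and results were also computed without lung 4 and intestine 4. For 11 gut epithelial and Paneth genes, intestine 4, 2 and 1 had the highest sums (483, 234 and 86.4) with lung 4 (89.4) and lung 5 (70.4), where the blood arrays had 1.58 to 4.17. In lung, Lyz1 and Fabp1 had the highest means of the list (3.47 and 1.46) and were well above background on 4 of 5 arrays. Fabp2, Lgals4 and Cdh17 were so on 1 lung array each, and the other genes of the list, among them Epcam, Vil1, Defa24 and Reg3g, on 0. For 10 macrophage genes, lung 4 (156), intestine 2 (150.3) and intestine 1 (118) had the highest sums.

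Mt1 was high at all 4 sites on day 4. Its probe 1 (RefSeq transcript NM_013602, mm9 chr8:96704165-96704224) was well above background on 24 of 24 arrays. In the graft the log2 levels were 0.50, 0.05, -0.97 and -0.18. In blood they were 2.31, 3.64, 4.50, 4.24 and 2.03, and in liver 2.33, 2.40, 3.43, 1.59 and 4.02. In lung they were 3.12, 4.43, 3.49, 4.43 and 3.06, and in intestine 3.77, 4.29, 3.73, 3.25 and 1.96. Each of the 20 day 4 arrays lay above every graft array, with the lowest, liver 4, still more than 1 log2 unit above the highest graft array. The mean of the 4 sites was 3.45 ± 0.456 (SE of the limma model) log2 units above the graft, which is 10.9-fold. In this comparison 53.4% of all tested genes passed the threshold of 0.05 (limma, p-values adjusted by Benjamini-Hochberg), 34.4% with a higher and 19.0% with a lower level on day 4. Since the 6 genes were chosen on these arrays, nothing is read from their count against that share. The share of all genes whose day 4 arrays lie wholly apart from the graft arrays is not given. Such counts, here and below, therefore describe single genes only.

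Mt2 had the same pattern from a lower start. Its probe (NM_008630, mm9 chr8:96697371-96697430) was well above background on 0 of 4 graft arrays and on 20 of 20 day 4 arrays. The graft levels were -1.11, -2.50, -3.14 and -2.44. Blood gave 3.27, 3.77, 5.24, 4.82 and 2.35, and liver 3.08, 3.26, 4.02, 0.74 and 4.28. Lung gave 3.68, 5.52, 4.85, 4.75 and 3.53, and intestine 3.75, 4.60, 4.06, 3.74 and 1.90. All 20 day 4 arrays lay above the 4 graft arrays, and liver 4 and intestine 5 were the lowest of them. Because the graft level is only a bound, the change is given as at least 22.1-fold, the day 4 mean against the lowest signal well above background on each graft array or the probe's own signal, whichever was higher. The measured log2 difference was 6.06 ± 0.554 (SE), and 3.92 after normexp background correction.

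**Figure D1:**
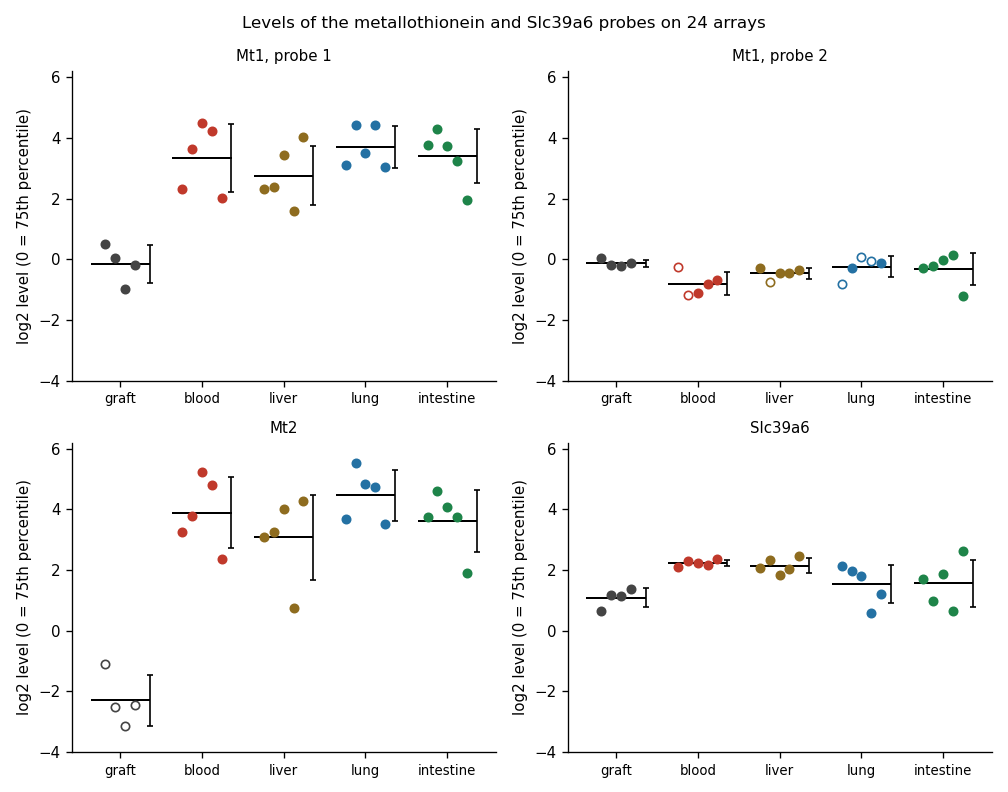
Log2 levels of 4 probes (y axis, 0 is the 75th percentile of the array) on the 24 arrays by group (x axis). Points are arrays, open where not well above background, horizontal lines are group means and bars are ± SD (n = 4 in the graft, 5 per site). Mt1 probe 1 and Mt2 are higher on all 20 day 4 arrays than on the graft arrays, Mt1 probe 2 is not, and Slc39a6 is above every graft array on 16 of 20.

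Levels at the 4 sites overlapped for both genes, though 5 arrays per site cannot show that the sites are alike. Mt1 had a mean level of 3.71 ± 0.684 (SD, n = 5) in lung, 3.40 ± 0.885 in intestine, 3.35 ± 1.12 in blood and 2.75 ± 0.965 in liver. Against the graft that is a log2 difference of 3.86 for lung, 3.55 for intestine, 3.50 for blood and 2.91 for liver, each ± 0.559 (SE). Mt2 was at 4.47 ± 0.842 in lung, 3.89 ± 1.17 in blood, 3.61 ± 1.02 in intestine and 3.07 ± 1.40 in liver, which is at least 36.1-fold, 24.2-fold, 19.95-fold and 13.8-fold above the graft. At each site 5 of 5 arrays lay above all graft arrays for both genes, where limma called 56.4% of all tested genes for blood, 50.4% for liver, 37.3% for lung and 34.8% for intestine. Neighbours in these orders differed by less than the SD within a site. The widest gap was that between lung and liver, 0.95 ± 0.527 (SE) for Mt1 and 1.39 ± 0.640 for Mt2. On the 5 shared slides, lung exceeded liver for Mt2 on 4, with differences from -0.74 to 4.01. Intestine minus lung for Mt2 was below 0 on 4 of the 5 slides, with differences from -1.63 to 0.07 and a mean of -0.86.

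Summed marker levels of tissue cells are set beside both genes here, and the part of such cells in the levels of Mt1 and Mt2 was not tested. In blood, where the summed levels were 2.38 to 3.56 for 10 hepatocyte genes, 1.58 to 4.17 for 11 gut genes, 1.92 to 3.19 for 7 lung epithelial genes and 5.34 to 12.4 for 10 macrophage genes, Mt2 was at least 24.2-fold above the graft. On the liver arrays the hepatocyte genes summed to 3.87 to 5.14, against 5.62 to 12.9 in the graft. Of the 10 genes, Alb, Ahsg, Apob, Fga and Ttr were well above background on 0 of 24 arrays. Apoa1 was so on 0 of 5 liver and 3 of 4 graft arrays. Apoa2 was so on 4 of 5 liver arrays and 0 of 4 graft arrays, Serpina1a on 3 and 0, and Fgb on 1 and 0. Trf was so on 2 liver and 4 graft arrays. Trf had the highest graft mean of the 10 (2.34, against -0.86 in liver), so the sums do not rank hepatocyte RNA in liver and graft. The part of hepatocyte RNA in the liver values was not tested. Without lung 4 and intestine 4 the mean difference from the graft was 3.42 for Mt1 and 6.03 for Mt2. The lower B cell and myeloid sums of the day 4 arrays moved with both genes, and their part in the difference was not tested.

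Mt1 and Mt2 varied together from array to array. Over the 20 day 4 arrays, after each site's mean was subtracted, Pearson's r was 0.918 and Spearman's rho 0.928. Without intestine 5 and blood 5, the arrays farthest from the median for Mt1, r was 0.883. Each gene was the other's most alike of the 9422 tested. Points of this kind share library, slide and depth, so these values are a description. The 60-base probes of the 2 genes share a longest run of 7 bases and at most 24 matching bases without gaps. Next in likeness to Mt1 came Upb1, an enzyme of pyrimidine breakdown (r 0.760, rho 0.756), Osgin1, an oxidative stress-induced gene (0.734, 0.749), Tmcc3 (0.689, 0.723) and Gsto1, a glutathione transferase (0.676, 0.617). For Mt2 they were Upb1 (0.753, 0.758), the folate enzyme Aldh1l1 (0.724, 0.741), Zfp329 (0.714, 0.666) and the nucleotidase Nt5c2 (0.689, 0.635). Against the graft these genes went different ways: Upb1 had a log2 difference of -4.07 and Osgin1 of -2.16, while Gsto1 was 1.79 higher.

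**Figure D2:**
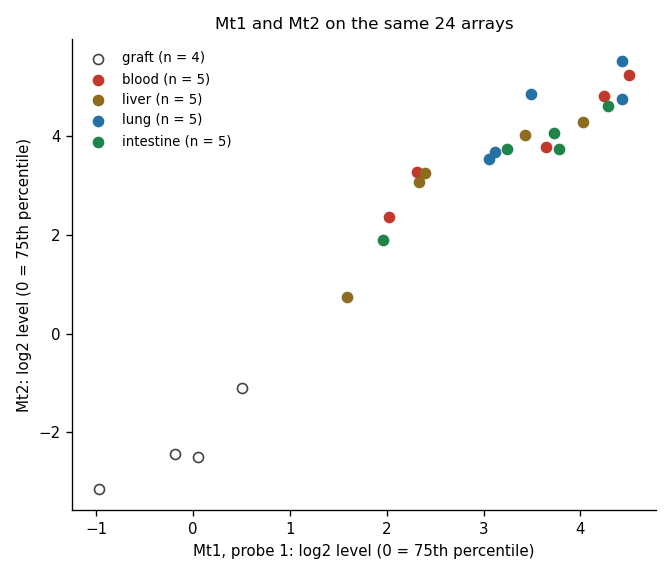
Log2 level of Mt2 (y axis) against that of Mt1 probe 1 (x axis) on the same 24 arrays, each on its own probe's scale, with 0 at the 75th percentile. Open points are the 4 graft arrays, where Mt2 was not well above background, and filled points the 20 day 4 arrays, which run from liver 4 (1.59 and 0.74) at the lower left to blood 3 (4.50 and 5.24) and lung 2 (4.43 and 5.52) at the upper right, with blood 5 and intestine 5 also at the lower left.

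The second Mt1 probe did not show this change. Probe 2 (mm9 chr8:96703844-96703903) begins 321 bp before probe 1, and the array annotation ties it to cDNA clones and not to the RefSeq transcript. The graft levels were 0.04, -0.19, -0.23 and -0.13, all well above background. On day 4, where 14 of 20 arrays were well above background, blood levels spanned -1.17 to -0.24 (median -0.80) and liver levels -0.76 to -0.29 (median -0.46). Lung levels spanned -0.83 to 0.07 (median -0.13) and intestine levels -1.22 to 0.15 (median -0.21). Its difference from the graft was -0.33 ± 0.221 (SE), with 2 of 20 day 4 arrays above and 14 below all graft arrays. Over the 20 day 4 arrays the 2 Mt1 probes had an r of 0.124 and a rho of -0.02. The exon or intron that each probe lies in was not determined, and the statements on Mt1 rest on probe 1. With the 2 probes averaged, the Mt1 difference was 1.56.

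Mtf1, the factor that senses zinc for these promoters, was at the edge of detection. Of its 3 probes (mm9 chr4:124522092-124522151, chr4:124526365-124526424 and chr4:124524812-124524871), the first was well above background on 1 array, graft 3. The second was so on 3, blood 3, blood 5 and intestine 5, and the third on 0 of 24. Their levels ran from -2.51 to -0.53, from -3.54 to 0.07 and from -3.65 to -1.81. Within blood the second probe spanned 3.60 log2 units, from -3.54 in blood 4 to 0.07 in blood 3. No fold is given, because both sides of each comparison lie below background on most arrays.

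Slc30a1, the plasma membrane zinc exporter ZnT1 and itself a known target of MTF-1, was well above background on 0 of 24 arrays (mm9 chr1:193736760-193736819). Graft levels spanned -2.54 to -1.67, blood levels -3.11 to -1.11 and liver levels -2.53 to -1.79. Lung levels spanned -2.72 to -0.83 and intestine levels -1.83 to -0.99, so every site overlapped the graft. The highest levels were those of lung 4 and intestine 4. Slc39a10, the zinc importer ZIP10, was likewise well above background on 0 of 24 arrays (mm9 chr1:46865343-46865402), with levels from -3.85 to -1.95. A change in any of these 3 genes was not detectable with these probes, which does not show that their transcripts were absent.

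**Figure D3:**
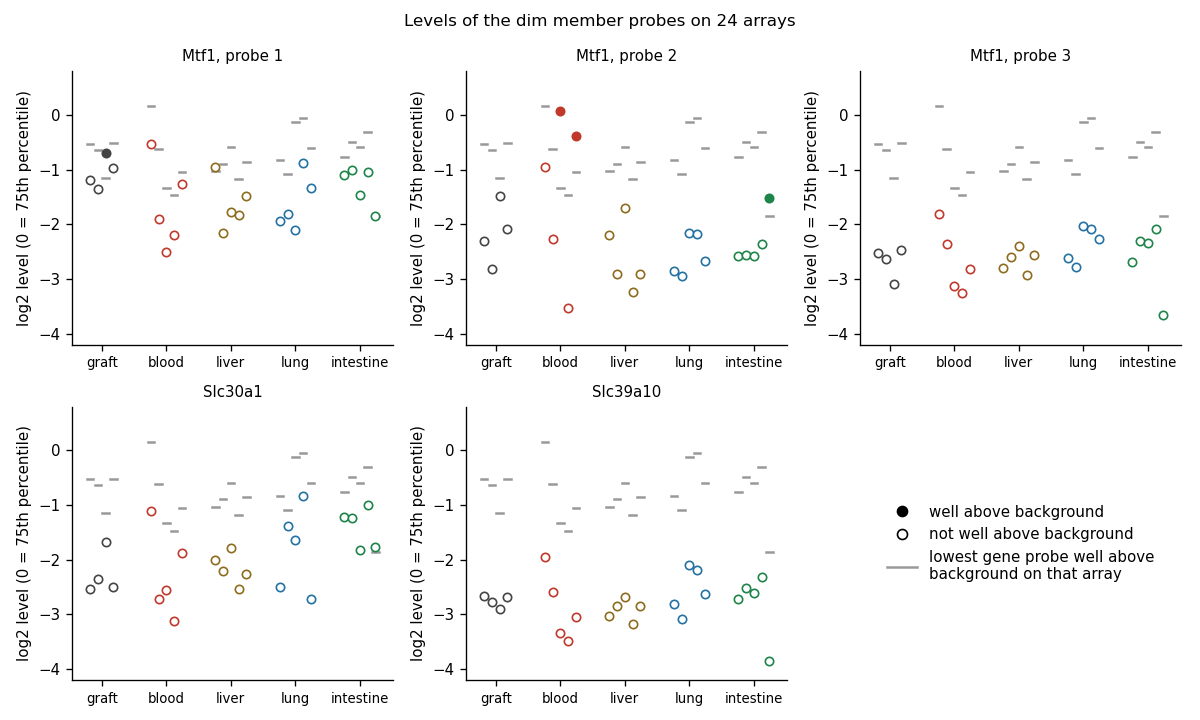
Log2 levels of the 3 Mtf1 probes, Slc30a1 and Slc39a10 (y axis, 0 is the 75th percentile) on 24 arrays by group (x axis). Filled points are well above background, and grey dashes give each array's lowest gene probe that was. Mtf1 probe 1 is filled on 1 array, probe 2 on 3 and the other probes on 0.

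Slc39a6 encodes the zinc importer ZIP6, which sits at the T cell surface. It was well above background on all 24 arrays and was moderately higher on day 4, most evenly in blood and liver. The graft levels were 0.65, 1.19, 1.14 and 1.37. Those in blood were 2.10, 2.31, 2.25, 2.18 and 2.35, and those in liver 2.08, 2.34, 1.83, 2.04 and 2.45. All 10 of these arrays lay above the graft. Lung gave 2.14, 1.96, 1.80, 0.59 and 1.22, and intestine 1.71, 1.00, 1.87, 0.64 and 2.62. There 3 of 5 arrays of each site lay above all graft arrays, and lung 4 and intestine 4 lay below them. The log2 difference from the graft was 0.78 ± 0.270 (SE) over the 4 sites, and 0.24 when arrays were scaled on the median of detected probes. By site, blood differed by 1.15, liver by 1.06, intestine by 0.48 and lung by 0.45, each ± 0.330; the lung difference was -0.04 when arrays were scaled on detected probes.

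The 4 lowest day 4 levels of Slc39a6 were those of lung 4, intestine 4, intestine 2 and lung 5. On the 2 intestine arrays the gut genes summed to 483 and 234 and the T cell genes to 204 and 232, the lowest T cell sums of all arrays. Lung 4 and lung 5 had 2 of 11 gut genes well above background, macrophage sums of 156 and 60.6, and T cell sums of 368 and 543. Intestine 5, with the highest Slc39a6 level, had a gut sum of 1.80 and a T cell sum of 504, whereas intestine 1, at 1.71, had gut and macrophage sums of 86.4 and 118. The part of other cells in the lung and intestine values was not tested; without lung 4 and intestine 4 the differences from the graft were 0.69 in lung and 0.71 in intestine. The genes most like Slc39a6 were Gm13430 (r 0.952, rho 0.928), Pdhb, a subunit of pyruvate dehydrogenase (0.951, rho 0.914), and Chst11, a sulfotransferase (0.946, rho 0.889). With Mt1 its r was -0.27 (rho -0.10) and with Mt2 -0.22 (rho 0.01), and r was -0.05 for both without the 2 arrays farthest from the median.

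The other zinc transporters and metallothioneins were taken whole by family: 23 genes, all on the array, of which 9 passed the signal filter. By limma with Benjamini-Hochberg adjustment over all 9422 genes, 5 of the 9 rose between graft and day 4, 0 fell and 4 were not called. Their median log2 difference was 0.98, against 0.23 over all genes, where 34.4% were called higher and 19.0% lower. Without the signal filter, the median over all 23 genes was -0.06, with 4 called higher and 1 lower, so the median of the 9 is not that of the families. Those that rose were 3 importers (Slc39a14, Slc39a1 and Slc39a4), the metallothionein Mt3 and the exporter Slc30a5, which loads zinc into the secretory pathway. The 5 and 0 became 2 and 1 when arrays were scaled on the 75th percentile or the median of detected probes and 3 and 0 after quantile normalisation or in the deposited log2 table. Over all tested genes, the share of calls that were higher moved from 64.4% to 40.9%, 36.5%, 50.3% and 50.3% under these settings, and the median difference over all genes from 0.23 to -0.18, -0.32, -0.05 and -0.05. The median of the 9 zinc genes became 0.57, 0.43, 0.69 and 0.69.

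Slc39a14, or ZIP14, an importer of zinc and of non-transferrin iron, went from below background to detected. In the graft it was at -2.66, -2.92, -3.39 and -2.69, well above background on 0 of 4 arrays. It was at 0.94, 1.07, 1.54, 1.26 and 0.97 in blood and at 0.32, 0.68, 0.95, 1.12 and 0.50 in liver. Lung gave 0.01, 0.41, -0.03, -2.31 and -1.09, and intestine -0.07, -1.24, 0.05, -2.18 and 1.51. All blood and liver arrays were well above background, as were 3 of 5 lung and 3 of 5 intestine arrays. On the graft arrays, and on lung 4, lung 5, intestine 2 and intestine 4, the values have no order because they lie below the background flag. The rise was at least 1.90-fold over the 4 sites (measured log2 difference 3.14 ± 0.439 SE, limma adjusted p = 3.36e-06), at least 3.65-fold in blood and at least 2.68-fold in liver. It was at least 1.08-fold in lung and at least 1.25-fold in intestine. Slc39a14 passed the signal filter only through day 4 groups, where it is high. Its adjusted p against the graft and its place among the called genes are therefore no support for the list. Of the other 8 genes of the list, 4 rose.

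Slc39a1, or ZIP1, a broadly expressed importer of the plasma membrane, rose at all 4 sites. Its graft levels were 1.12, 1.98, 2.60 and 1.28, and its day 4 levels ran from 2.55 to 4.11, with 19 of 20 arrays above all graft arrays. The log2 difference was 1.55 ± 0.271 (SE, limma adjusted p = 5.36e-05), and by site it ran from 1.41 in liver to 1.73 in blood. Mt3, a metallothionein best known from brain, rose by 1.10 ± 0.307 (limma adjusted p = 0.00477), with 16 of 20 day 4 arrays above all graft arrays. It was called in blood, liver and lung, the lung call being lost in 21 of 35 alternatives. Over the 4 sites its call was lost on both scales of detected probes (adjusted p = 0.0845 and 0.0831). Slc30a5 was 0.98 log2 units higher (adjusted p = 0.0408), called in blood and liver, and lost its call over the 4 sites in 14 of 35 alternatives. These were both scales of detected probes (adjusted p = 0.232 and 0.248), quantile normalisation and the deposited table (0.129 for both), no signal filter (0.0728), slide as a random block (0.0753), and fits without graft 1, 3 or 4 (0.124, 0.0638 and 0.111). It was also lost by limma, at adjusted p = 0.0505 to 0.0513, without liver 3, lung 1, lung 3, blood 3 or intestine 3. The liver call was lost in 8 of 35 alternatives. The 4 genes not called were Slc30a4 (0.07), Slc30a6 (-0.46), Slc39a7 (0.17), an importer that releases zinc from the endoplasmic reticulum, and Slc39a11 (0.12).

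**Figure D4:**
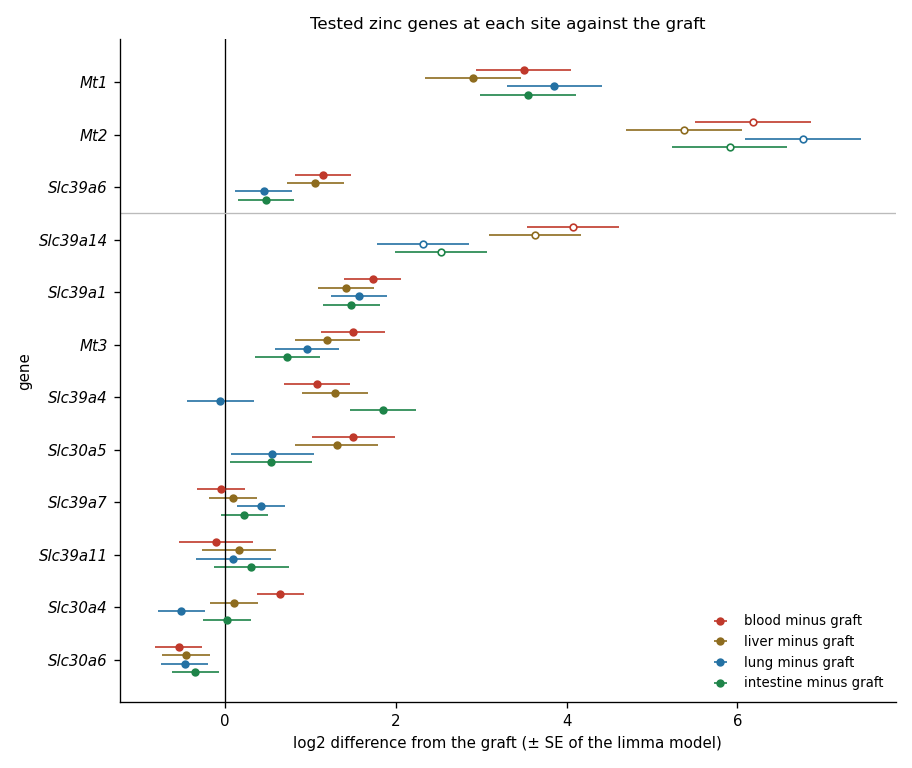
Log2 difference from the graft at each day 4 site (x axis, points with ± SE of the limma model) for the 12 tested zinc genes (y axis); the 3 above the grey line were chosen on these arrays. Open points mark genes below the background flag on all 4 graft arrays, whose differences are measured values and not bounds. Mt1, Mt2, Slc39a14 and Slc39a1 lie right of 0 at all 4 sites.

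Of the 14 family members that did not pass the filter, Slc30a9 was well above background on 12 of 24 arrays, Slc39a3 on 9, Slc30a2 on 2, and Slc30a7 and Slc39a8 on 1 each. Mt4, Slc30a3, Slc30a8, Slc30a10, Slc39a2, Slc39a5, Slc39a9, Slc39a12 and Slc39a13 were so on 0 of 24. By site, 5 of the 9 tested genes were called higher in blood, as many in liver, and 3 each for lung and intestine, with 0 lower at each site, where 35.3%, 34.4%, 25.8% and 22.1% of all genes were called higher and 21.1%, 15.9%, 11.5% and 12.7% lower. The 4 comparisons share the graft arrays.

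Between sites, 3 differences were called over the 54 comparisons of 9 genes in 6 pairs of sites, 4 with slide as a random block and 2 with replicate number as a block. In fits of the 20 day 4 arrays alone 0 were called, with slide as a block or, in an alternative chosen after seeing the data, without one. All 3 calls were thus lost when the graft arrays left the fit. The best separated was Slc39a4, or ZIP4, the importer through which enterocytes take up dietary zinc. It was at 2.25, 2.04, 3.28, 3.03 and 2.33 in intestine, at 1.46, 0.57, 0.95, 0.53 and -0.12 in lung and at 0.50, 0.35, 0.90 and 1.18 in the graft. Every intestine array lay above every lung array, and on each of the 5 slides intestine was higher, by 0.79 to 2.50 log2 units. The difference was 1.91 ± 0.367 (SE, limma adjusted p = 0.0208; on the 20 day 4 arrays 0.0558, and with the slide block 0.0843), in a pair where 0.382% of all genes were called, 0.117% higher and 0.265% lower in intestine. The call also ended without lung 4, lung 5 or intestine 3 (adjusted p = 0.0553, 0.107 and 0.0627). Slc39a4 was 1.85 above the graft in intestine (adjusted p = 0.000747) and 1.04 over the 4 sites (0.00881). The call over the 4 sites was lost on both scales of detected probes (adjusted p = 0.0722 and 0.179), with quantile normalisation (0.0689) and in the deposited table (0.0684).

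Gut epithelial genes were also high on some intestine arrays. The 11 genes summed to 86.4, 234, 9.36, 483 and 1.80 on intestine arrays 1 to 5. They summed to 3.27 to 89.4 in lung, 1.58 to 4.17 in blood, 2.13 to 49.7 in liver, with liver 5 the highest, and 4.76 to 7.81 in the graft. In lung, only Lyz1 and Fabp1 of the 11 were well above background on more than 1 array. Between 2 and 8 of the 11 were well above background on the intestine arrays, among them Reg3g and Defa24 on 4 of 5, Vil1 on 2, and Muc2 and Epcam on 0. Among the intestine arrays, Slc39a4 was at 2.33 in intestine 5, which had the lowest sum, at 3.28 in intestine 3 and at 3.03 in intestine 4, which had the highest. Slc39a4 was also called higher in blood (1.08, limma adjusted p = 0.0225), where the gut sum was at most 4.17, and in liver (1.29, 0.00897), where liver 5 had both the highest gut sum and the highest Slc39a4 level (3.12). The blood call was lost in 7 of 36 alternatives, among them those without graft 1, graft 2 or blood 3 (adjusted p = 0.0578, 0.0693 and 0.0634), and the liver call in 4. The part of gut cells in the intestine value was not tested.

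**Figure D5:**
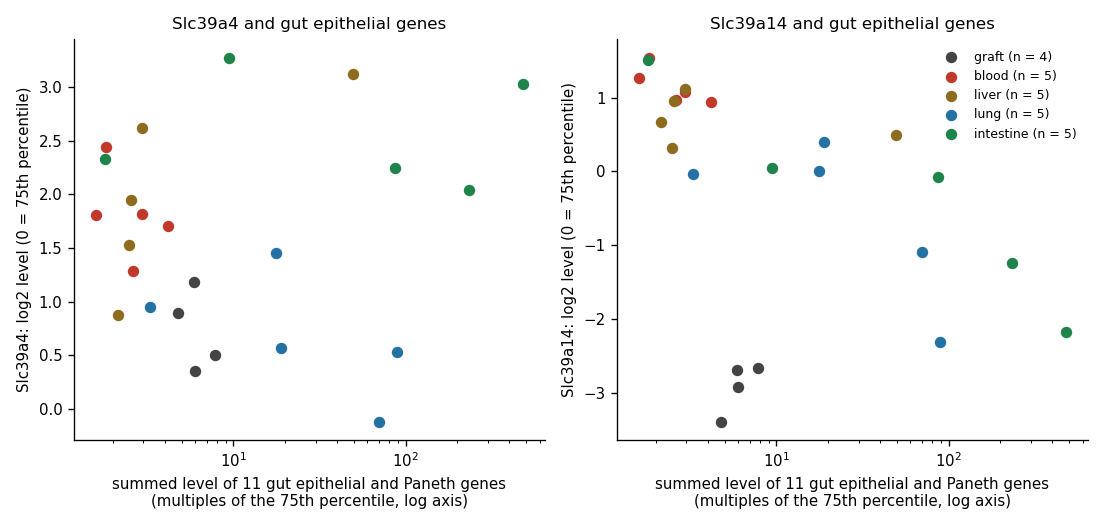
Log2 levels of Slc39a4 and Slc39a14 (y axes, 0 is the 75th percentile) against the summed level of 11 gut epithelial and Paneth genes (x axis, log scale, multiples of the 75th percentile) on 24 arrays coloured by group. Slc39a4 is between 2.04 and 3.28 on the 5 intestine arrays at sums from 1.80 to 483, while Slc39a14 is below the background flag in lung 4, lung 5, intestine 2 and intestine 4.

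Slc39a14 was lower in intestine than in blood by 1.54 log2 units (difference -1.54 ± 0.507 SE, limma adjusted p = 0.0472; on the 20 day 4 arrays 0.0734, and with the slide block 0.0682), in a pair where 13.3% of genes were called, 11.5% lower and 1.79% higher. It was lower on 4 of 5 slides, with differences from -3.44 to 0.54. Intestine 2 and intestine 4 lay below the background flag, so the size of the difference rests in part on values without order. The call ended under 28 of 37 alternatives. These include each blood and graft array left out (adjusted p = 0.0525 to 0.107) and intestine 1, 2 or 4 left out (0.0660, 0.138 and 0.162), where without intestine 4 the difference was -1.10. Slc30a4, a vesicular exporter, was lower in lung than in blood by a difference of -1.16 ± 0.264 (limma adjusted p = 0.0285; on the 20 day 4 arrays 0.0587, and with the slide block 0.0673), on 5 of 5 slides, where 1.45% of genes were called, 0.679% lower and 0.775% higher. Its blood levels were 1.60, 1.14, 1.72, 1.73 and 0.94 and its lung levels -0.04, 1.11, -0.61, 0.46 and 0.41, so that 4 of 5 lung arrays lay below all blood arrays. This call was also lost without lung 4, lung 5, blood 1, blood 3 or blood 4 (adjusted p = 0.0508 to 0.0959). In the pairs liver and blood, lung and liver, and intestine and liver, limma called 0 of 9 genes, and 0, 3 and 1 had an unadjusted p under 0.05; of all genes, 0%, 0.456% (0.361% higher and 0.0955% lower in lung) and 0% were called. Both fits of the 20 day 4 arrays also called 0 of these.

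Lists of related metals and of known metallothionein inducers were set beside these genes. Over all tested genes, limma called 34.4% higher and 19.0% lower on day 4 than in the graft. Nothing is read from the counts of these lists against those shares. Of 8 tested copper handling genes, 4 rose and 0 fell by limma: Sod1, the copper-zinc superoxide dismutase (0.76 ± 0.228 SE, adjusted p = 0.00749, 20 of 20 day 4 arrays above all graft arrays), the copper chaperone Atox1 (0.70, 0.00983), the cytochrome oxidase assembly factor Sco2 (0.67, 0.0260) and the copper pump Atp7a (1.11, 0.0468). The count was 0 with arrays scaled on the 75th percentile of detected probes and 1 on their median, and Atp7a lost its call in 25 of 36 alternatives. Of 9 iron handling genes, 1 rose and 1 fell: the iron chaperone Pcbp2 was 0.75 higher (adjusted p = 0.00743) and the mitochondrial iron importer Slc25a37, which is also abundant in erythroid cells, was lower on 20 of 20 day 4 arrays (-1.78, 0.000355). The erythroid sums above moved with it, and their part was not tested. Ferritin heavy and light chains, Fth1 (0.0033 ± 0.234) and Ftl1 (-0.29 ± 0.201), were not called. The medians were 0.49 for copper and 0.12 for iron genes, against 0.23 over all genes.

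Of 14 tested targets and regulators of the oxidative stress factor NRF2, 5 rose and 3 fell, where 34.4% of all tested genes were called higher and 19.0% lower. Txnrd1, thioredoxin reductase, was 2.61 ± 0.211 (SE) higher (limma adjusted p = 1.48e-09), the peroxiredoxin Prdx1 1.26 (8.12e-07), glutathione reductase Gsr 1.64 (3.46e-06) and G6pdx, which feeds the pentose phosphate pathway, 1.60 (6.35e-06). Each of these 4 was higher on 20 of 20 day 4 arrays than on every graft array. The fifth was Txn1 (1.14). Heme oxygenase Hmox1 (-1.94), Osgin1 (-2.16) and Taldo1 (-0.71) fell, so members of this list went both ways, with a median of 0.45. Hmox1 is also abundant in macrophages, whose summed level was 15.1 to 54.3 in the graft and 3.33 to 156 on day 4; their part was not tested. Of 9 tested glucocorticoid-induced genes, 2 rose and 1 fell, beside the same shares over all genes, with a median of 0.58. Fkbp5 was 3.72 ± 0.356 higher (adjusted p = 1.81e-08) and Ddit4 2.35 ± 0.263 (1.67e-07), both on 20 of 20 day 4 arrays above all graft arrays. Dusp1 had a log2 difference of -1.33 (0.00213). Tsc22d3 (0.58 ± 0.334), Per1 (0.53 ± 0.469) and Sgk1 (0.59 ± 0.487), classical members of the list, were not called. All of these comparisons of day 4 with the graft share the same 4 graft arrays and the same background of 53.4% of genes called. That share counts limma calls and not full separation of arrays, so it is no measure for the counts of 20 of 20.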

How the data were processed

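Agilent arrays of 1 colour (Cy3) were hybridised with RNA from 24 samples; 300 pg of total RNA per sample was amplified in successive rounds before labelling, per the labels' protocols. The authors deposited the scanner output of each array, whose processed signals are background-subtracted intensities from Agilent Feature Extraction, version 9.5.1.1 per the file headers and 10.7 per the submitters' processing notes. They also deposited a log2 table, which matched quantile-normalised, median-centred log2 intensities of the same arrays (lowest r = 0.99911) and served as an alternative.

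Control spots and non-uniform spots were left out and replicate spots averaged. Levels were log2(processed signal) minus the array's 75th percentile. Tests used probes with a gene symbol that were well above background on all or all but 1 array of a group, and the brightest probe stood for its gene, which left 11248 probes and 9422 genes. Of 39429 gene probes, 6595 (16.7%) had no symbol. Groups were compared with limma 3.58.1 in R 4.3.3 (statmod 1.5.0), with 1 mean per group on all 24 arrays and Benjamini-Hochberg adjustment over all tested genes. The procedure was tested on simulated data. An "at least" fold sets the brighter group's mean against, per array of the dim group, the higher of the lowest signal well above background and the probe's own.

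The 6 genes, the lists and the marker genes were chosen with earlier results of these data known, and the rule for named genes took all 6 genes, every called gene of the zinc list, up to 4 called genes with the smallest adjusted p of each other list, and the 5 (Mt1, Mt2) or 3 (Slc39a6) most alike genes. The genes not called, and Txn1, Hmox1, Osgin1 and Taldo1 in their list, were named after their values were seen. Replicate numbers of day 4 arrays coincide with slides, per the file headers. Same-numbered arrays had a mean correlation of deviations of 0.115 (-0.369 to 0.565), others -0.0283. Alternatives covered scaling, background, filter, probe choice, slide and replicate blocks, the 20 day 4 arrays alone (chosen after seeing the data), array weights and each array left out. Slc39a6 probe coordinates are not reported here.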

Additional observations from a re-analysis of the deposited data

Results flagged for a closer look

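Among 67 groups of 4 or 5 arrays examined for a single distant array, 3 had one, where chance gives about 1 in 20. Mtf1 probe 2 was at -1.51 in intestine 5, with the other 4 intestine arrays between -2.58 and -2.36. The probes of the 6 genes were examined in a group only where at least 1 array was well above background. Here that array was intestine 5 itself and the other 4 lay below background, so the rule favoured this outlier and nothing is read from it. Slc39a7 was at 6.73 in liver 5, with the others between 5.62 and 5.94. Slc39a11 was at -0.012 in blood 1, with the others between 2.47 and 3.24.

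The difference between sites itself passed the limma threshold for 3 zinc genes, each of which passed it with slide as a random block and missed it in both fits of the 20 day 4 arrays alone. Slc30a4 had a log2 difference of -1.16 between lung and blood, Slc39a14 of -1.54 between intestine and blood, and Slc39a4 of 1.91 between intestine and lung.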

How the results depend on the processing

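For each result 35 to 38 alternatives were run, changing 1 choice each except the slide block of the 20 day 4 arrays, which also leaves out the graft. Mt1 and Mt2 stayed above the graft in every one run. Over the 4 sites the differences were 1.56 to 3.59 and 3.92 to 6.24 log2 units, the runs that leave out 1 array not counted. The Mt1 value was 2.53 after normexp background correction and 1.56 with probes averaged, and the Mt2 value 3.92 after normexp. The Slc39a6 value was 0.24 scaled on the median of detected probes, and its lung difference turned to -0.041 on either scale of detected probes. Leaving out 1 array gave 3.18 to 3.67 for Mt1, 5.78 to 6.45 for Mt2 and 0.64 to 0.88 for Slc39a6.

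The count of other zinc genes called against the graft (5) became 3 on both scales of detected probes, after quantile normalisation and in the deposited table, and 2 with probes well above background on all arrays, where 3 genes could be tested. The 16 calls over single sites became 7 under that filter. The 3 calls between sites became 1 on the median of detected probes, with quantile normalisation, in the deposited table, without a filter and with the all-array filter, 4 with slide as a random block, 2 with replicate number as a block on 24 arrays, 0 with slide as the replicate block on the 20 day 4 arrays, 0 on those 20 arrays with no block (chosen after seeing the data), 7 with array weights and 0 without lung 4 and intestine 4. Copper calls (4) became 0, 1, 2 and 2 on the 75th percentile of detected probes, their median, quantile and the deposited table, and 2 with slide as a random block. Iron calls (2) became 1 with quantile, the deposited table and the all-array filter and 4 with normexp. Glucocorticoid calls (3) became 7 with array weights. Leaving out 1 array gave 4 to 6 zinc calls against the graft, 13 to 17 over single sites, 0 between sites without lung 5 and 7 without intestine 5, and 2 copper calls without graft 2 up to 4. It gave 2 iron, 3 glucocorticoid and 8 to 10 NRF2 calls. The causes were not tested.

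With the replicate block over the numbers of the labels on 24 arrays, the Mt1, Mt2 and Slc39a6 differences were 3.59, 6.24 and 0.71, and 5 zinc, 3 copper, 2 iron, 8 NRF2 and 3 glucocorticoid genes were called against the graft. Signal over background limits Mtf1, Slc30a1 and Slc39a10, and the graft side of Mt2 and Slc39a14.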
